A study of Canis lupus familiaris with 2 samples.

Results

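The genes described here encode the enzymes that build fatty acids and join them to glycerol, together with proteins of the lipid droplet. They were followed in MDCK cells, an established line of dog kidney epithelial cells, grown here on the semipermeable membrane of a culture insert. The series held 2 RNA sequencing libraries, 1 from a culture in 2-cm-high medium (2 cm H2O, described in the labels as no pressure) and 1 from a culture in 50-cm-high medium (50 cm H2O), both at day 3. They are called 2 cm and 50 cm below. Both cultures were kept in EMEM with fetal calf serum in a pressure-loadable chamber system, and the labels give no other difference between them. In this system the height of the medium sets the pressure. Pressure was therefore not varied apart from the column of serum-containing medium above the cells. The paper also reports slower growth and flatter, wider MDCK cells under raised pressure. Its analysis of gene categories in the RNA sequencing placed lipid biosynthesis and metabolism as most significantly down-regulated. Effects of medium amount, cell number and cell shape on these transcripts were not tested. The comparison asked which transcripts differ between the cultures under the lower and the higher medium column. Members were found by gene symbol. All 42 listed symbols were present among the 23510 features of the deposited tables, and 36 of them had more than 1 FPKM (sequenced fragments per kilobase of exon, scaled to library size) in both cultures. The list was chosen by enzyme name after fatty acid synthesis genes had already been seen at lower values in the 50-cm-high-medium library. The ratio of these same FPKM values therefore took part in the choice, and all counts below describe the 2 libraries. With 1 culture per medium height, no difference could be set against replicate error, none was tested, and no error accompanies any value.

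Cells make fatty acids in the cytosol from acetyl-CoA, which citrate cleavage or acetate supplies. Acetyl-CoA carboxylase and fatty acid synthase build palmitate, and elongases and desaturases of the endoplasmic reticulum lengthen it and insert double bonds. Acyl-CoA synthetases activate fatty acids, acyltransferases place them on glycerol 3-phosphate to give phosphatidic acid, and lipins remove the phosphate to yield diacylglycerol. From there the path divides into triglyceride, stored in lipid droplets, and the phospholipids of membranes. In many tissues these genes are driven by the SREBP transcription factors, and epithelial cells use their products for the membranes of their apical and basolateral surfaces.

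The cultures had the profile of an epithelium. All 7 epithelial markers looked up (CDH1, EPCAM, KRT8, KRT18, KRT19, OCLN and CLDN4) were above 1 FPKM in both, with a summed level of 5221 FPKM at 2 cm and 4868 FPKM at 50 cm. Of the 3 kidney tubule markers present, PAX2 and PAX8 were above 1 FPKM in both cultures, and CDH16 was at 1.96 and 0.676 FPKM. Among 17 markers of adipocytes, hepatocytes, fibroblasts, leukocytes and endothelium, 1 exceeded 1 FPKM in both cultures, namely CIDEC, a lipid droplet protein of fat cells. These 17 summed to 6.25 FPKM at 2 cm and 7.59 FPKM at 50 cm, and the defining adipocyte genes were near the floor (LEP at 0 in both, ADIPOQ at 0.172 and 0.0539 FPKM). In both cultures 8 of the 17 were listed at 0, among them ALB, PTPRC and PECAM1. In RNA from whole cultures, fewer cells that express a gene and less RNA per cell cannot be told apart. The number of reads per library is not in the tables. A detectable value under 0.1 FPKM in both cultures was found for 574 features. Of these, 198 lay within 0.005% of the single ratio that equal read numbers leave, by which a read was worth 9.77% more FPKM at 50 cm. If each of these 198 features held 1 read per culture, 1 FPKM corresponded to about 25 reads for a gene of their median length (17 to 38 over the middle of their range). The limit of 0.1 FPKM keeps single reads of long transcripts only, and a shorter gene held fewer reads at 1 FPKM.

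Most lipid synthesis transcripts were lower at 50 cm at the steps that supply, build and desaturate fatty acids, and close to even at the steps that place them on glycerol. The 42 members summed to 1899 FPKM at 2 cm and 1408 FPKM at 50 cm, a change of -25.9%, and their share of all FPKM went from 0.316% to 0.229%. Of the 36 members above 1 FPKM in both cultures, 23 had a lower and 13 a higher value at 50 cm, where 47.4% of all 11057 such features had a lower value. Their median log2 ratio (50-cm over 2-cm) was -0.21, against 0.01 for all 11057 features. The genes LPIN1, FADS2, CHPT1 and SCD were lower by more than 2-fold, 4 of 36 members (11.1%), and the background share in that direction was 1.28%. None of the 36 was higher by more than 2-fold, a limit that 0.389% of all features passed. Beyond 1.5-fold, 7 members were lower (ACSS2, ACLY and ELOVL5 in addition, background 5.06%) and 0 higher (background 2.13%). Because the list was chosen with these ratios known, nothing is read from the shares. Just inside the 2-fold limit lay SCD with a ratio of 0.495 and CHPT1 with 0.483, and just outside it ACSS2 with 0.565 and ACLY with 0.570. Lower values made up 76.8% of all features past 2-fold, and 61.6% after quantile normalization of the libraries.

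**Figure D1:**
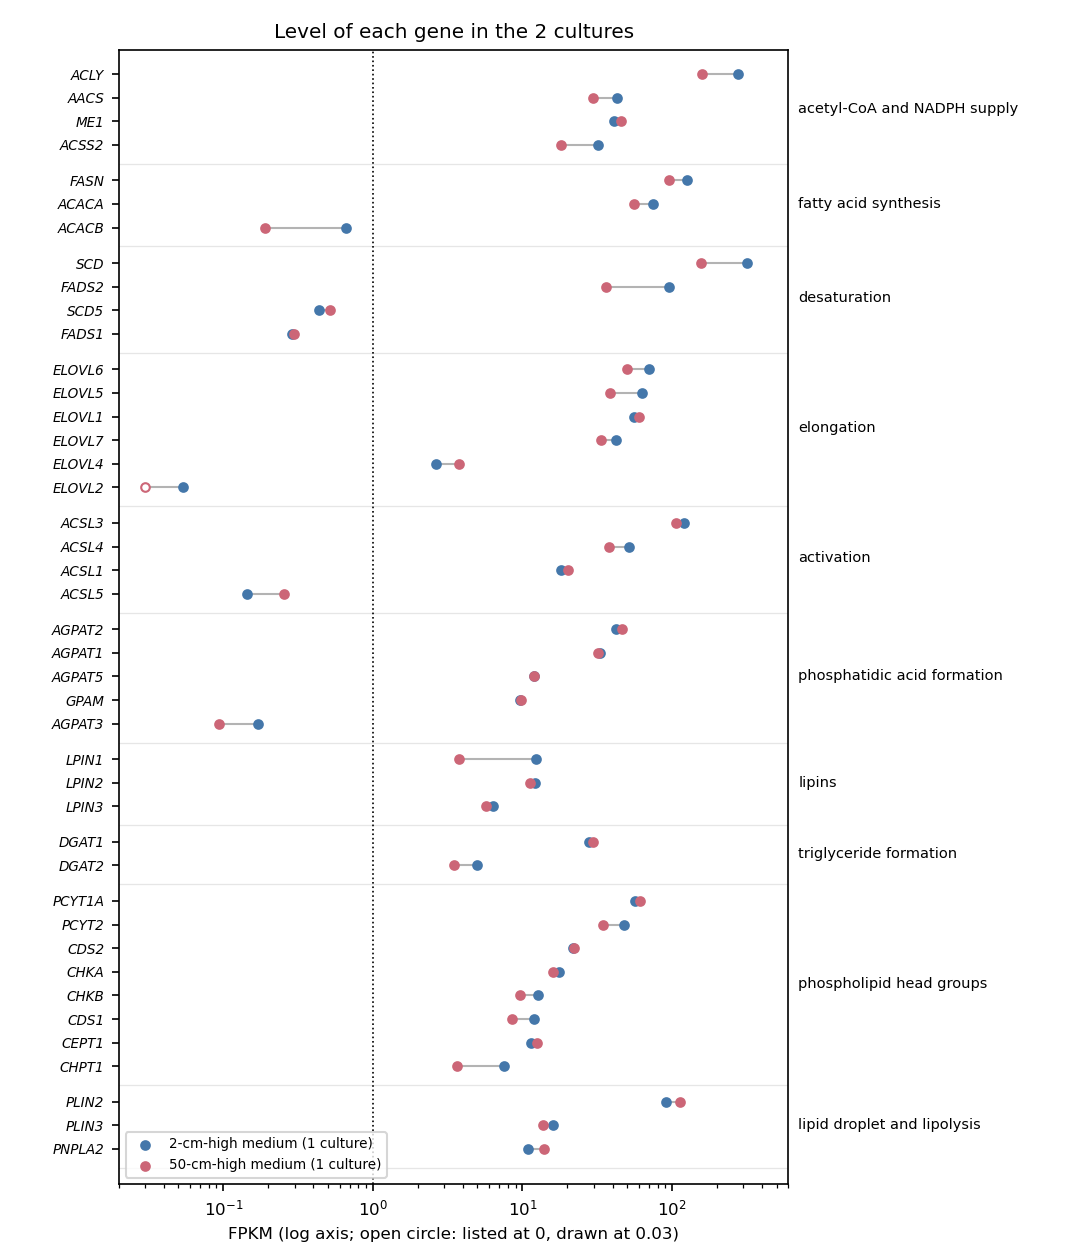
FPKM of the 42 genes (log axis) in the 2-cm-high-medium culture (blue) and the 50-cm-high-medium culture (red), grouped by step, 1 culture each, with the dotted line at 1 FPKM. SCD went from 317 to 157 FPKM and LPIN1 from 12.3 to 3.77 FPKM, whereas AGPAT5 and GPAM nearly coincide. The open circle at the left is ELOVL2, listed at 0 in 50-cm-high medium and placed there because a log axis has no 0.

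The genes of acetyl-CoA and NADPH supply, ME1 included, had a summed level of 393 FPKM at 2 cm and 251 FPKM at 50 cm. ACLY, which cleaves citrate in the cytosol to acetyl-CoA, was the second most abundant member at 2 cm with 278 FPKM and had 158 FPKM at 50 cm (ratio 0.570). Among the 1106 features in the same decile of mean expression, 9 had a lower ratio. ACSS2, which makes acetyl-CoA from acetate, went from 32.1 to 18.2 FPKM (ratio 0.565), with 7 of 1105 features of its decile below it. Both routes to acetyl-CoA thus had nearly the same ratio. AACS, which activates the ketone body acetoacetate for lipid synthesis, went from 42.6 to 29.6 FPKM (ratio 0.695). ME1, the cytosolic malic enzyme that yields NADPH for fatty acid synthesis, differed in direction from these genes, with 40.8 FPKM at 2 cm and 45.5 FPKM at 50 cm (ratio 1.12).

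The enzymes of palmitate synthesis were both lower, with ratios close to each other. ACACA, the cytosolic acetyl-CoA carboxylase that commits carbon to fatty acids, went from 74.9 to 55.4 FPKM (ratio 0.740). FASN, the synthase that assembles palmitate, went from 127 to 95.5 FPKM (ratio 0.754). Neither gene passed 1.5-fold, and in their expression deciles 31 and 35 of 1106 features, respectively, had lower ratios. ACACB, the carboxylase isoform at the mitochondrial surface that restrains fatty acid oxidation, was scarce, with 0.660 FPKM at 2 cm and 0.191 FPKM at 50 cm. Its ratio of 0.289 is given by 19 reads against 5, or multiples of them. The 95% counting interval of that ratio for these smallest read numbers was 0.0843 to 0.7998. ACACA made up 99.1% of the summed carboxylase level at 2 cm and 99.7% at 50 cm.

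Desaturation was the step with the lowest sum relative to 2-cm-high medium, from 413 to 194 FPKM, a change of -53.0%. SCD, the stearoyl-CoA desaturase that makes oleate and palmitoleate, was the most abundant member at 2 cm at 317 FPKM and had 157 FPKM at 50 cm, a ratio of 0.495 (log2 ratio -1.01). It held rank 137 from the lowest ratio among 11057 features, and 5 of 1106 features of its expression decile lay below it. FADS2, which catalyses the entry step in making long polyunsaturated fatty acids from dietary linoleate and linolenate, went from 95.0 to 36.1 FPKM, a ratio of 0.380 (log2 ratio -1.39). It held rank 38 from the lowest, with 3 of 1106 features of its decile below it. Their relatives were scarce. FADS1, whose product acts after that of FADS2 in the same path, was at 0.289 FPKM at 2 cm and 0.295 FPKM at 50 cm. SCD5, a second stearoyl-CoA desaturase, was at 0.439 and 0.515 FPKM. These ratios are given by 14 reads against 13 for FADS1 and by 15 reads against 16 for SCD5, or multiples of them. For these smallest read numbers the counting intervals were 0.441 to 2.34 and 0.542 to 2.54, so that no difference was detectable at this depth. SCD therefore made up 99.9% of the stearoyl-CoA desaturase level at 2 cm and 99.7% at 50 cm. Together SCD and FADS2 carried the desaturation sum.

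The elongases differed among themselves. ELOVL5, which lengthens the polyunsaturated products of FADS2, was the lowest of them, from 63.4 to 38.5 FPKM (ratio 0.607), with 11 of 1106 features of its decile below it. ELOVL6, which lengthens palmitate to stearate, went from 70.4 to 49.9 FPKM (ratio 0.709). ELOVL7, an elongase of long saturated and polyunsaturated chains, went from 42.3 to 33.4 FPKM (ratio 0.788). By contrast, the elongases of very long chains used in sphingolipids were not lower. ELOVL1 had 56.1 FPKM at 2 cm and 60.1 FPKM at 50 cm (ratio 1.07). ELOVL4 had 2.65 and 3.78 FPKM (ratio 1.43), the highest ratio of all 36 members, although 48 of the 1106 features of its low-expressed decile lay above it. ELOVL2, which extends polyunsaturated chains further, was at 0.0537 FPKM at 2 cm and is listed at 0 at 50 cm. The share of ELOVL1 in the summed elongase level went from 23.9% to 32.4%, and the share of ELOVL5 from 27.0% to 20.7%. ELOVL6 led the family at 2 cm and ELOVL1 at 50 cm.

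**Figure D2:**
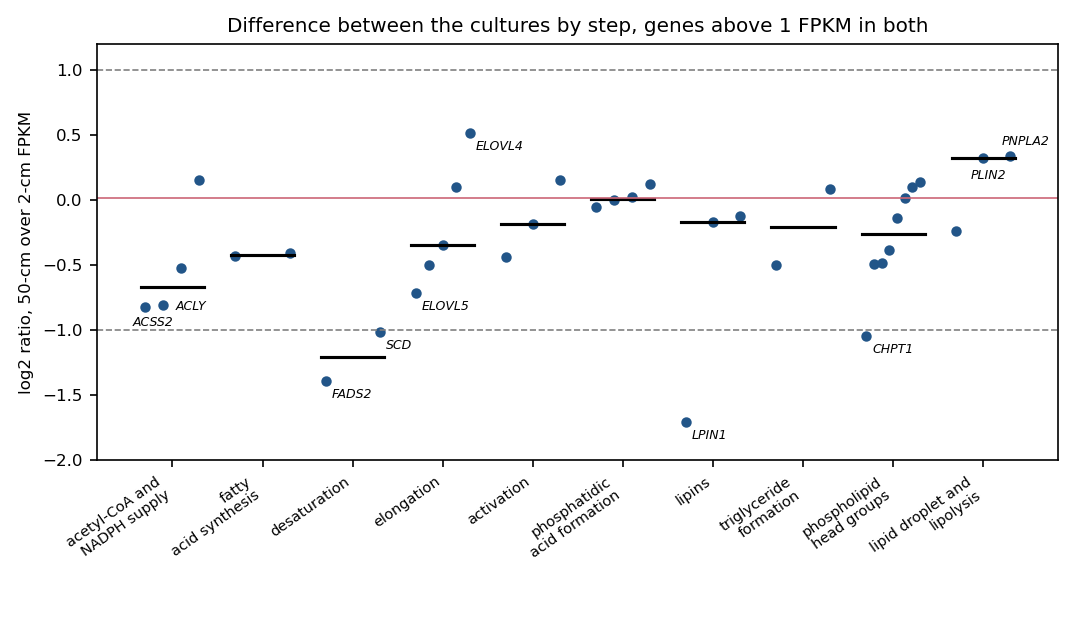
Log2 ratio (50-cm over 2-cm FPKM) of the 36 genes above 1 FPKM in both cultures, by step, each point being 1 gene. Black bars give the step median, dashed lines mark 2-fold, and the red line is the median of all 11057 features (0.01). Among genes above 1 FPKM, desaturation has the lowest step median (-1.20) and the lipid droplet step the highest (0.32).

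Long-chain acyl-CoA synthetases, which activate fatty acids for all later uses, were moderately lower as a family, from 190 to 165 FPKM. ACSL3, the synthetase linked to lipid droplet growth and the main family member, went from 121 to 107 FPKM (ratio 0.882). ACSL4, which prefers arachidonate and other polyunsaturated fatty acids, went from 51.3 to 37.8 FPKM (ratio 0.737), and its share of the family from 26.9% to 22.9%. ACSL1, a synthetase of the endoplasmic reticulum and mitochondria, was slightly higher, with 18.0 and 20.0 FPKM (ratio 1.11). ACSL5 stayed low, with 0.145 FPKM at 2 cm and 0.254 FPKM at 50 cm. Its ratio of 1.76 is given by 5 reads against 8, or multiples of them. For these smallest read numbers the counting interval ran from 0.507 to 6.82. No member of the family passed 1.5-fold among those above 1 FPKM.

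The acyltransferases that form phosphatidic acid had nearly even values. GPAM, the mitochondrial enzyme that starts glycerolipid synthesis, had 9.60 FPKM at 2 cm and 9.74 FPKM at 50 cm (ratio 1.01). The AGPAT enzymes add the next acyl chain. AGPAT5 had 11.9 FPKM in both cultures. AGPAT1 had 33.2 and 32.0 FPKM (ratio 0.963). AGPAT2, the isoform lost in a congenital lipodystrophy, had 42.2 and 46.1 FPKM (ratio 1.09). The median log2 ratio of this step was 0.01, but it was slightly negative, down to -0.05, when the libraries were recentred on the median, scaled on the upper quartile or scaled without the 10 highest features. The summed level of the step was 97.1 FPKM at 2 cm and 99.8 FPKM at 50 cm. AGPAT3 had 0.171 and 0.0936 FPKM, the ratio left by 2 reads against 1 or multiples of them. For these smallest read numbers the counting interval was 0.0093 to 10.5.

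The lipins, which turn phosphatidic acid into diacylglycerol, stood apart from this evenness through LPIN1 alone. LPIN1, which is also known as a nuclear coregulator of lipid genes, went from 12.3 to 3.77 FPKM, a ratio of 0.306 (log2 ratio -1.71). It had the lowest ratio of the 36 members and rank 10 from the lowest among 11057 features, and 1 of 1106 features in its expression decile lay below it. LPIN2 had 12.2 and 11.2 FPKM (ratio 0.918), and LPIN3 had 6.36 and 5.66 FPKM (ratio 0.891). In 2-cm-high medium LPIN1 and LPIN2 were about equal, with 40.0% and 39.4% of the summed lipin level. In 50-cm-high medium LPIN1 held 18.3%, LPIN2 54.2% and LPIN3 27.5%, and the sum went from 30.8 to 20.6 FPKM. A pseudocount of 1 brought the log2 ratio of LPIN1 to -1.48.

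**Figure D3:**
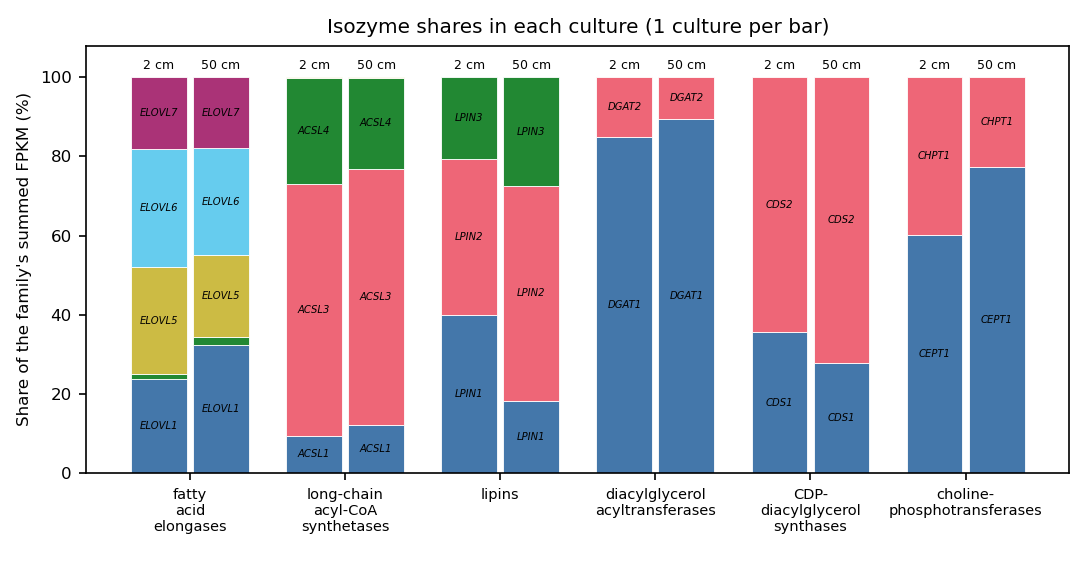
Share of each isozyme in the summed FPKM of its family (%), in the 2-cm-high-medium culture (left bar) and the 50-cm-high-medium culture (right bar) of each family, with the thin unlabelled green band being ELOVL4. LPIN1 went from 40.0% to 18.3% of the lipins and CHPT1 from 39.9% to 22.6% of the cholinephosphotransferases, while the acyl-CoA synthetases kept nearly the same division.

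At the branch to triglyceride, of the 2 diacylglycerol acyltransferases DGAT1 was close to even and DGAT2 lower. DGAT1, the main one here, had 27.9 FPKM at 2 cm and 29.5 FPKM at 50 cm (ratio 1.06). DGAT2, which is tied to newly made fatty acids, went from 4.96 to 3.50 FPKM (ratio 0.706), but in its low-expressed decile 169 of 1106 features (15.3% of the others) had a lower ratio. The sum of both was 32.8 FPKM at 2 cm and 33.0 FPKM at 50 cm, and the median log2 ratio of the step was -0.21.

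At the branch to phospholipids, lower values concentrated in certain isozymes. CHPT1, which joins choline phosphate to diacylglycerol in the Golgi apparatus, went from 7.58 to 3.66 FPKM, a ratio of 0.483 (log2 ratio -1.05). It lies in an expression decile where ratios spread widely, with 35 of 1106 features below it. CHPT1 no longer passed 2-fold with a pseudocount of 1 (log2 ratio -0.88) or after quantile normalization (-0.96). CEPT1, which serves both choline and ethanolamine lipids, had 11.4 and 12.6 FPKM (ratio 1.10), so that the share of CHPT1 in their sum went from 39.9% to 22.6%. PCYT1A, the rate-limiting enzyme of phosphatidylcholine synthesis, had 56.7 and 60.7 FPKM (ratio 1.07). PCYT2, its counterpart in phosphatidylethanolamine synthesis, went from 48.0 to 34.3 FPKM (ratio 0.715), with 24 of 1106 features of its decile below it. In the decile of PCYT1A, 41.9% of the other features had a higher ratio. Of the rate-setting genes of the choline and ethanolamine routes, PCYT2 was thus lower and PCYT1A close to even. Of the choline kinases, CHKB went from 12.6 to 9.69 FPKM (ratio 0.767) and CHKA from 17.6 to 15.9 FPKM (ratio 0.908). CDS1 and CDS2 make CDP-diacylglycerol for phosphatidylinositol. CDS1 went from 12.0 to 8.54 FPKM (ratio 0.710), and CDS2 had 21.8 and 22.0 FPKM (ratio 1.01).

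Genes of the lipid droplet were the only step with a clearly positive median (0.32). PLIN2, which coats lipid droplets and whose level follows their amount in many cells, had 90.5 FPKM at 2 cm and 113 FPKM at 50 cm (ratio 1.25), and moved from rank 6 to rank 3 among the members by level. PNPLA2, the triglyceride lipase of droplets, had 11.0 and 13.9 FPKM (ratio 1.27). PLIN3, another droplet coat protein, had 16.1 and 13.6 FPKM (ratio 0.850). None of the 3 passed 1.5-fold, and 10.4% of the other features in the decile of PLIN2 and 8.14% in that of PNPLA2 had higher ratios.

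**Figure D4:**
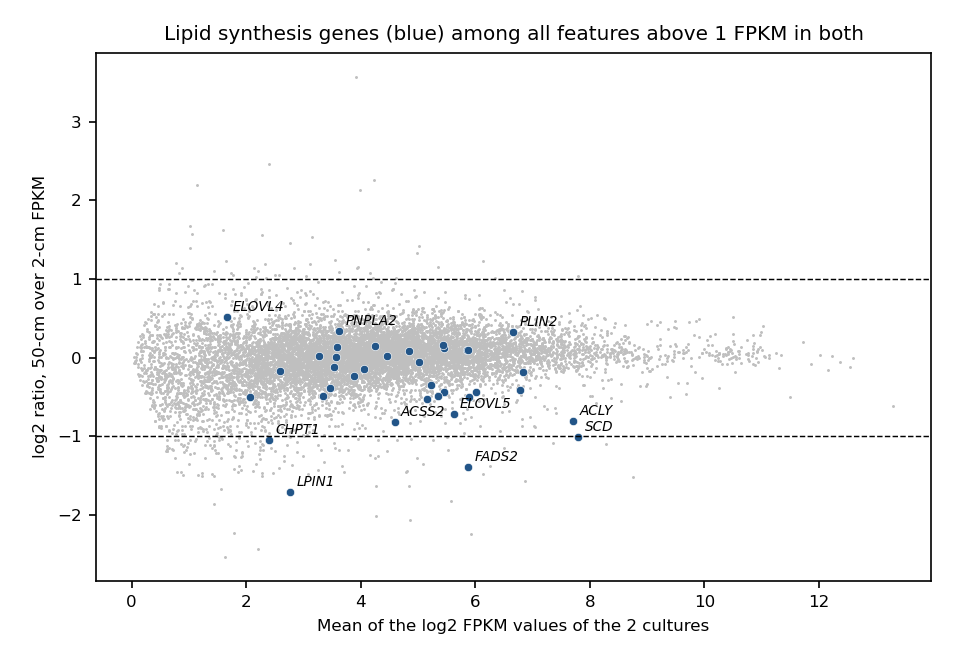
Log2 ratio (50-cm over 2-cm FPKM) against the mean log2 FPKM of both cultures for the 11057 features above 1 FPKM in both (grey) and the 36 lipid synthesis genes among them (blue), 1 culture per medium height, with dashed lines at 2-fold. LPIN1 and FADS2 lie at the lower edge, SCD and ACLY below nearly all features of like abundance, and CHPT1 where the grey points spread more widely.

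The median ratio of the members was lower in the highest expression decile, although LPIN1, FADS2 and CHPT1, all past 2-fold, lay below that decile. In the highest expression decile lay 5 members (SCD, ACLY, FASN, ACSL3 and PLIN2) with a median log2 ratio of -0.41, where the 1106 features of that decile had 0.07 and 32.4% of them were lower. The 31 members of lower expression had a median of -0.17, against 0.005 for the 9951 other features. Without LPIN1, FADS2, CHPT1 and SCD, the remaining 32 members had a median of -0.15, with 19 lower and 13 higher. The direction was the same under the 4 other scalings of the libraries for 33 of the 36 genes. For GPAM, AGPAT5 and CDS2, which had nearly equal values in both cultures, the sign depended on the scaling.

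Related genes were looked up from lists of fixed names. Of 25 regulators of lipid synthesis above 1 FPKM in both cultures, 14 were lower and 11 higher (median log2 ratio -0.02). The lower ones made up 56%, beside 47.4% of all features. By more than 2-fold, 1 was lower (4%, beside 1.28% of all features) and 0 higher (beside 0.389%). INSIG1, which retains the SREBP complex in the endoplasmic reticulum and is itself an SREBP target, was the only regulator past 2-fold, from 118 to 42.3 FPKM (ratio 0.357). SREBF2, the SREBP gene best known for cholesterol synthesis, went from 78.4 to 40.2 FPKM (ratio 0.513), whereas SREBF1, whose product governs fatty acid genes, went from 63.7 to 53.1 FPKM (ratio 0.833). SCAP, the escort protein of SREBP, had 18.6 and 18.3 FPKM, and INSIG2, the isoform of INSIG1, had 8.75 and 8.07 FPKM. NR1H3, the nuclear receptor LXR alpha that induces SREBF1, went from 2.26 to 1.25 FPKM (ratio 0.554). MLXIPL, the carbohydrate-responsive factor ChREBP, went from 2.25 to 0.562 FPKM (ratio 0.250) and so did not meet the minimum of 1 FPKM. The 2 SREBP genes thus had unequal ratios.

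Further enzymes of the same paths are given with their counts, to be read beside the shares over all features. Of all features, 47.4% were lower, 5.06% by more than 1.5-fold and 1.28% by more than 2-fold. By more than 1.5-fold, 2.13% were higher. Of 12 other elongation and desaturation genes, 6 were lower and 6 higher and 0 passed 1.5-fold. FADS3, a relative of FADS2 in the same gene cluster, was higher, with 55.6 and 80.9 FPKM (ratio 1.45), and HSD17B12, the reductase of the elongation cycle, lower, with 80.8 and 55.3 FPKM (ratio 0.684). Of 13 other glycerolipid genes, 3 were lower and 10 higher, and LPCAT3, which puts polyunsaturated chains into phospholipids, was the only gene past 1.5-fold, from 70.2 to 43.0 FPKM (ratio 0.613). Of 12 other phospholipid synthesis genes, 5 were lower, 7 higher and 0 past 1.5-fold. Of 5 other acyl-CoA synthetase and citrate export genes, 4 were lower, with SLC27A3 at 2.89 and 1.75 FPKM (ratio 0.606). SLC25A1, the mitochondrial carrier that exports citrate to ACLY, had 101 and 84.0 FPKM (ratio 0.828). All 6 measured genes of droplets and triglyceride breakdown outside the members lay within 1.5-fold. In fatty acid uptake and binding, 4 of 5 genes were lower, and FABP3, a cytosolic fatty acid carrier, was lower by more than 2-fold, from 726 to 255 FPKM (ratio 0.351).

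In both neighbouring paths more genes were lower than higher at 50 cm. All 22 listed genes of cholesterol synthesis were above 1 FPKM in both cultures. Of these, 20 were lower at 50 cm, 7 by more than 2-fold (31.8%). The median log2 ratio was -0.87, against -0.21 for the 36 fatty acid and glycerolipid genes. Over all features, 47.4% were lower and 1.28% lower by more than 2-fold. Of 18 genes of fatty acid beta-oxidation above 1 FPKM, 12 were lower (66.7%, beside 63.9% of the 36 members), 0 passed 2-fold and the median was -0.06. DECR1, which removes double bonds from unsaturated fatty acids before their oxidation, was the only beta-oxidation gene past 1.5-fold, from 19.0 to 9.54 FPKM (ratio 0.502). With 1 culture per group, the differences between these lists were not tested.

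**Figure D5:**
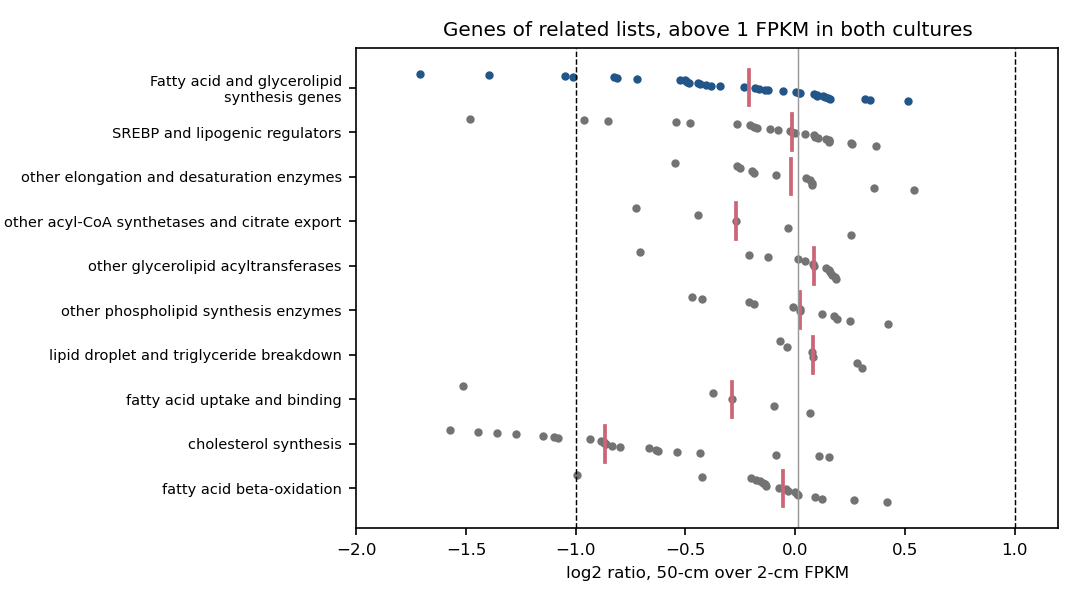
Log2 ratio (50-cm over 2-cm FPKM) of genes above 1 FPKM in both cultures in the fatty acid and glycerolipid list (blue) and 9 related lists (grey), 1 point per gene, with the list median in red, dashed lines at 2-fold and the grey line at the median of all 11057 features. Cholesterol synthesis has the lowest median (-0.87). The list labelled other glycerolipid acyltransferases, which also holds GPD1L, GPD2 and GK of other enzyme types, has the highest (0.09).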

How the data were processed

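RNA of 1 culture per medium height was analysed. The authors made stranded mRNA libraries, sequenced single-end reads of 75 bases, mapped them to CanFam3.1 (TopHat2 2.0.13, Bowtie2 2.2.3, SAMtools 0.1.19, from the submitters' processing notes) and deposited FPKM values from Cuffnorm 2.2.1. The annotation and the scaling are not given in the sources used here. FPKM divides by exon length and library size, so abundant genes that differ shift the others.

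Ratios of 50-cm over 2-cm FPKM were formed on the deposited values, with no pseudocount, where both exceeded 1 FPKM. They were read at 2-fold, as in the authors' stated rule, and at 1.5-fold. At 2-fold, 142 features were lower and 43 higher, fewer in all than the paper reported. The authors' set of called genes was therefore not reproduced, and the background shares are not theirs. Expression deciles were formed on mean log2 FPKM. Smallest whole read numbers, up to 30 per culture, were sought within 0.005% of a ratio for genes that did not exceed 1 FPKM in both. Their 95% intervals are exact binomial and cover counting error only. All intervals printed are for the smallest read numbers, and multiples of these would give the same ratio with a narrower interval. Members and lists were chosen with earlier results of these data known. Named are the members, and from other lists the genes past 1.5-fold and fixed regulators, while cholesterol genes are counted only. SLC25A1, FADS3, HSD17B12 and the genes of the closing section were named after their values were seen. The code for calls was run on simulated data with planted changes well past 2-fold (Python 3.11.15, numpy 2.4.6, scipy 1.17.1, pandas 2.3.3, matplotlib 3.10.9). That run checked the code only, and says nothing of how reliable calls near 2-fold are in these libraries. A planned promoter search and gene positions were left out, since no sequence of this build was used here.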

Additional observations from a re-analysis of the deposited data

How the results depend on the processing

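No paired analysis was possible because each group is 1 culture, and no replicate could be left out. Counts and medians of the members, medians of the steps, counts over all features and ratios of single members were recomputed under 9 alternatives, and related lists, sums, shares and ranks were not. Members lower by more than 2-fold numbered 4 of 36 in the main comparison (11.1%, beside 1.28% of all features). With any value above 0 accepted they numbered 5 of 41 (12.2%, beside 5.35%). They numbered 3 of 36 (8.33%) with a pseudocount of 1 (beside 0.615%) or after quantile normalization (beside 0.886%). Above 5 FPKM in both cultures, where LPIN1 and CHPT1 are no longer measured, 2 of 32 remained (SCD and FADS2, 6.25%, beside 0.491%). No member was higher by more than 2-fold under any alternative. The median of the members stayed between -0.27 and -0.17, and 20 to 26 of them had lower values. Scaling moved the median of all features by less than 0.1. Above 0 FPKM, the desaturation median moved to -0.49 and the activation median to -0.015 as scarce genes entered, so that acetyl-CoA and NADPH supply (-0.67), not desaturation, had the lowest step median. Above 5 FPKM, the triglyceride median turned from -0.21 to 0.085 because DGAT1 alone was left, and the phospholipid median moved from -0.26 to -0.14. All features past 2-fold (142 lower and 43 higher) became 765 and 451 above 0 FPKM, 43 and 19 above 5 FPKM, 271 and 85 with 1 FPKM in either culture, and 68 and 24 with a pseudocount of 1. Filters leave the ratio of a gene as it is, and among the other alternatives the largest shift of a member was 0.23 on the log2 scale (LPIN1, pseudocount of 1). Read depth limits genes below 1 FPKM, where the differences were of few reads.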

Other observations

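Some genes of the related lists were too scarce for the comparison, and no difference is read from their values. SLC27A6, a fatty acid transporter, was at 0.169 FPKM at 2 cm and 0.0285 FPKM at 50 cm. PCYT1B, the isoform gene of PCYT1A, was at 0.158 and 0.472 FPKM. For FITM1, an inducer of fat storage, 0.563 and 0.265 FPKM gave a ratio of 0.470, which 7 reads against 3 leave, with a counting interval of 0.0785 to 2.06. PNPLA3, a droplet protein and SREBP target in liver, was at 1.79 and 0.944 FPKM (ratio 0.529), the ratio of 27 reads against 13, with a counting interval of 0.2504 to 1.06.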
